A study of Homo sapiens with 30 samples.

Results

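The genes described here build and run the DNA replication fork: 44 human genes that mark replication origins, load and start the MCM helicase, prime and copy DNA, and restore chromatin and hold the fork steady behind it. They were chosen by name, from probe sets whose platform annotation gave 1 of the listed symbols, current or former, and no other. All 44 genes were found, on 64 of the 22283 probe sets of the Affymetrix array, and 63 of these probe sets passed the filter on low signal. By complex they are the origin recognition genes ORC1, ORC2, ORC3, ORC4, ORC5 and ORC6. The loading factors are CDC6, CDT1 and GMNN, and the helicase genes are MCM2, MCM3, MCM4, MCM5, MCM6 and MCM7, with MCM10 apart. CDC7 and DBF4 encode the activating kinase, and CDC45, GINS1, GINS2, GINS3 and GINS4 the helicase cofactors. The clamp loader genes are RFC1, RFC2, RFC3, RFC4 and RFC5, and PCNA is the clamp. The polymerase and primase genes are POLA1, POLA2, PRIM1, PRIM2, POLD1, POLD2, POLD3, POLE, POLE2 and POLE3. FEN1 is the flap nuclease, CHAF1A and CHAF1B are the chromatin assembly factors, and TIMELESS and TIPIN protect the fork.

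RNA came from GM15036 and GM15510, lymphoblastoid lines, which are B cells made to grow without limit in culture. Each line was kept as a suspension culture in MEM with serum and irradiated with caesium-137 at 1, 2.5, 5, 7.5 or 10 cGy, and 3 arrays were made at each dose of each line, 30 in all. The doses are in cGy as the sample labels have them, although the series' design text writes Gy. The sources used here give no unirradiated group and no time after irradiation, so the lowest dose, 1 cGy, was the reference within each line, and all comparisons within a line share its 3 arrays. Each line is a single culture model, and whether arrays of 1 dose were grown as different cultures is not in the labels, so a p-value here reflects array to array spread, possibly technical.

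Before a cell copies its DNA, the origin recognition complex sits on origins, and CDC6 and CDT1 use it to load the ring-shaped MCM helicase, a step that geminin, the product of GMNN, blocks once replication has begun. The kinase of CDC7 and DBF4, MCM10, CDC45 and the GINS complex then turn the loaded ring into a moving helicase. DNA polymerase alpha with primase starts each strand, the clamp loader RFC opens the PCNA ring and closes it around DNA, and polymerases delta and epsilon extend the strands on it. Many of these genes are transcribed late in G1 under E2F factors, so in dividing B cells their RNA is known to follow how many cells are entering S phase.

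Promoter windows are shown for 3 members on which the results turn: RFC3 and MCM6, which were lower at 10 cGy in GM15036, and GINS1, which was lower at 10 cGy in GM15510. They are RefSeq windows of 300 bases around the start site on GRCh38.p14, at chr13:33817899-33818198 on the plus strand for RFC3, chr2:135876394-135876693 on the minus strand for MCM6 and chr20:25407423-25407722 on the plus strand for GINS1. Each is printed 5′ to 3′ along the gene, with capitals for any of the E2F-type words TTTCCCGC, TTTCGCGC, TTTGCCGC or TTTGGCGC on either strand.
RFC3: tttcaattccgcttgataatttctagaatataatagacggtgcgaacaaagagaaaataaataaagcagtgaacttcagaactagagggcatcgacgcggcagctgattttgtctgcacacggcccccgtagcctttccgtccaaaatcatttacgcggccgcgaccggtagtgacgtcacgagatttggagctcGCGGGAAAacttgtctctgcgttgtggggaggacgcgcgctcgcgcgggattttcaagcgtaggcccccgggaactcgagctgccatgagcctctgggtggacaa
MCM6: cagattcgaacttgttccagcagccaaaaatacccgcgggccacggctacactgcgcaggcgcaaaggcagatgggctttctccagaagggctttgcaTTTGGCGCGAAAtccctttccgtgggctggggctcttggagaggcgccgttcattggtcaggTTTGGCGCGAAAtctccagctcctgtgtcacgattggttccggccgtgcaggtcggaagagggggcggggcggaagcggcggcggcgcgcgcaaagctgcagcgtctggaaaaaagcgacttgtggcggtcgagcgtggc
GINS1: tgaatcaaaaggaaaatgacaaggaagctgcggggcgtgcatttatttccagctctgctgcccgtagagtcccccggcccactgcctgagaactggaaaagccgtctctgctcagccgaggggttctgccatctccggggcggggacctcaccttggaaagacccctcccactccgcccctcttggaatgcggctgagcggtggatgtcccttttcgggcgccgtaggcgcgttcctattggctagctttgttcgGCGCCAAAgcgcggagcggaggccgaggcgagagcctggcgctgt
The RFC3 and GINS1 windows hold 1 such word each and the MCM6 window 4, in overlapping pairs on opposite strands. The RefSeq table had a window for 40 of the 44 members, all but MCM4, MCM5, GINS4 and POLD3. A word was present in 19 of the 40 windows (47.5%), against 1090 of 27305 genes with a window of the same length (3.99%). Those 27305 are all genes with a RefSeq window, more than the 11963 genes found on the array. They were not matched to the members. Among members that fell at 10 cGy in GM15036 it was in 4 of 9 windows (44.4%), and among the other members in 15 of 31 (48.4%), a similar share. A match is a description of these letters, not evidence of a bound factor.

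The deposited values were linear MAS5 signals whose array brightness, the mean of the middle values, ran from 14.1 to 111.5. Each array was therefore scaled to a brightness of 50.9 (scaled signal, in arbitrary units), and tests used log2 of the scaled signal plus 4. A difference on this scale is given as "log2" below and understates the change of dim probe sets. Brightness before scaling moved with dose in GM15036, from 69.6 ± 10.2 at 1 cGy (mean ± SD, n = 3) through 49.8 ± 6.12, 51.3 ± 3.47 and 32.4 ± 4.73 to 22.1 ± 10.4 at 10 cGy. In GM15510 the 1 cGy arrays had 69.4 ± 10.5, the 2.5 cGy arrays 18.7 ± 4.48, and the 5, 7.5 and 10 cGy arrays 39.0 ± 26.6, 67.7 ± 21.7 and 89.1 ± 23.6. The 3′ to 5′ signal ratio of ACTB, a gauge of RNA or labelling quality, is given in log2 units from 1 to 10 cGy. It was 4.48, 5.51, 5.03, 5.40 and 5.20 in GM15036. In GM15510 it was 3.75, 4.29, 4.81, 3.78 and 5.16, with the 5 cGy arrays from 3.43 to 5.52. Correlations of arrays within a group (0.881 to 0.965) overlapped those between groups (0.853 to 0.961). Of 12 B cell markers 11 were on the array. In GM15036 these summed to 1793 to 1932 at 1 cGy and 2267 to 2410 at 10 cGy. In GM15510 the sums were 1529 to 1710 and 1744 to 1844. Mean scaled signals over all 30 arrays ran from 10.9 for BLK and 14.1 for FCER2 to 565 for PAX5. CD79A gave 36.6, CD79B 50.7, MS4A1 277 and CD74 477, so PAX5 and CD74 weigh most in the sum. Markers of T and NK cells were all on the array, 9 of 9, and 6 of them passed the filter. Their mean scaled signals over all 30 arrays were low, from 2.15 for CD3G to 16.1 for CD3E, and none was listed at 0. In GM15036 they summed to 51.3 to 63.2 at 1 cGy and 84.4 to 92.4 at 10 cGy. In GM15510 they summed to 41.6 to 57.8 and 51.3 to 58.4. The part of brightness enters below as a covariate; that of RNA quality and of cell types was not tested.

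In GM15036 most clamp loader genes and part of the helicase were called lower at 10 cGy than at 1 cGy. Only RFC3 and MCM6 passed under all 15 alternative ways of processing. The other members called did not pass with brightness, which moved with dose in this line, as a covariate. With limma, 10 of the 44 members fell and 1 rose (11 in all), and the adjusted p, after Benjamini-Hochberg adjustment over 18450 tested probe sets, had to be under 0.05. Over all 10263 genes tested, 8.12% were called and 5.4% fell. The median log2 change of the members was -0.24, against 0.05 for all genes tested, and 29 of the 44 lay below 0. In these bulk samples, fewer cells in S phase and less RNA per cell cannot be told apart. Of the 5 clamp loader genes 4 fell, and of the 10 polymerase and primase genes 0 passed; the complexes were not tested against each other.

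**Figure D1:**
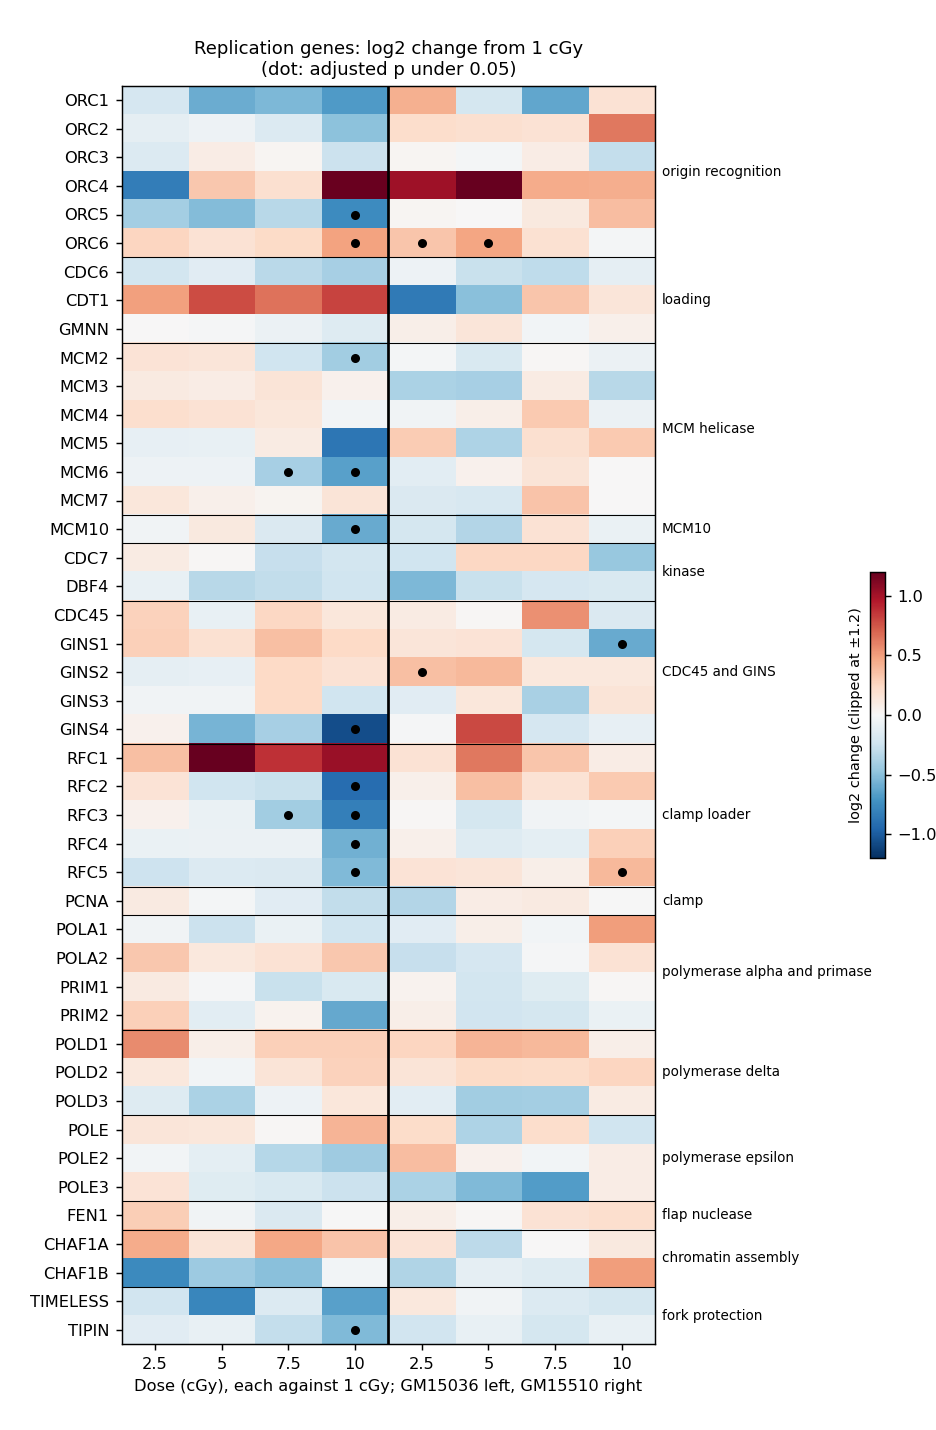
Heat map of the log2 change from 1 cGy of 44 replication genes (rows, by complex) at 4 doses in each line (columns); colour gives the change, limited to 1.2 either way, and a dot marks limma's adjusted p under 0.05. Dots gather in the GM15036 column at 10 cGy, where 10 genes fell and 1 rose, while the GM15036 columns at 2.5 and 5 cGy hold none.

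In the clamp loader 4 of 5 genes fell. RFC3 (probe set 204127_at) is the gene of a small subunit of the loader. It gave scaled signals of 253, 280.1 and 258 on the 1 cGy arrays, then 271, 285 and 267 at 2.5 cGy. At 5 cGy they were 243, 268 and 236. The 7.5 cGy arrays read 185, 213 and 193 and the 10 cGy arrays 155, 145 and 144. The 1, 2.5 and 5 cGy arrays overlapped, and every array at 7.5 and 10 cGy lay below them all. The group mean went from 264 ± 14.4 (SD, n = 3) at 1 cGy to 148 ± 5.92 at 10 cGy, a log2 change of -0.82 (SE 0.093, adjusted p = 2.59e-07). At 7.5 cGy the change was -0.41 (SE 0.093, adjusted p = 0.00946), a call that was lost without 1 cGy array b (0.0864). It was also lost with brightness as a covariate (0.0785) and with the mean of the gene's probe sets (-0.32, adjusted p = 0.413). The other RFC3 probe set, 204128_s_at, was dimmer and overlapped between 1 and 7.5 cGy. RFC3 at 10 cGy passed with each of the 30 arrays left out in turn (highest adjusted p 1.1e-05). It also passed under all 15 alternatives (highest adjusted p 4.62e-04), so the call there did not rest on any 1 array.

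RFC4, another small subunit, read 294, 328 and 281 at 1 cGy and 209, 163 and 236 at 10 cGy. All arrays of the higher dose lay below those of the lower. At 2.5, 5 and 7.5 cGy its arrays ran from 259 to 342 and overlapped the 1 cGy arrays. Its log2 change at 10 cGy was -0.57 (SE 0.127, adjusted p = 0.00236). RFC5, a further small subunit, read 257, 252 and 213 at 1 cGy and 145, 209 and 148 at 10 cGy, a log2 change of -0.53 (SE 0.113, adjusted p = 0.0017). The 2 groups of RFC5 did not overlap, although 10 cGy array b came close to 1 cGy array c. The other RFC5 probe sets overlapped between these doses, with -0.21 for 213734_at and -0.044 for 203210_s_at, and with the mean of the gene's probe sets the change was -0.26 and did not pass (adjusted p = 0.349). RFC2, also a small subunit, read 52.8, 46.1 and 46.9 at 1 cGy and 23.7, 28.6 and 20.1 at 10 cGy, a log2 change of -0.91 (SE 0.240, adjusted p = 0.0117). The RFC2 call was lost without 1 cGy array a (0.0514) or 10 cGy array c (0.0585), and the gene's other probe set, 203696_s_at, gave -0.43 (adjusted p = 0.207).

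The large subunit gene RFC1 was represented by a probe set near the pseudocount, 208133_at, with signals of 0.521 to 18.9 in GM15036, whose change at 10 cGy was 1.04 (adjusted p = 0.21). Another RFC1 probe set, 208021_s_at, went from 76.5, 114 and 95.6 at 1 cGy to 29.3, 73.8 and 42.6 at 10 cGy, a log2 change of -0.99 (SE 0.211, adjusted p = 0.00173). A further RFC1 probe set, 209085_x_at, gave -0.27 and did not pass, so the 3 disagree. PCNA, the sliding clamp that RFC loads, read 501, 564 and 455 at 1 cGy and 383, 392 and 457 at 10 cGy. These PCNA groups overlapped, and the change of -0.30 did not pass (SE 0.126, adjusted p = 0.157).

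**Figure D2:**
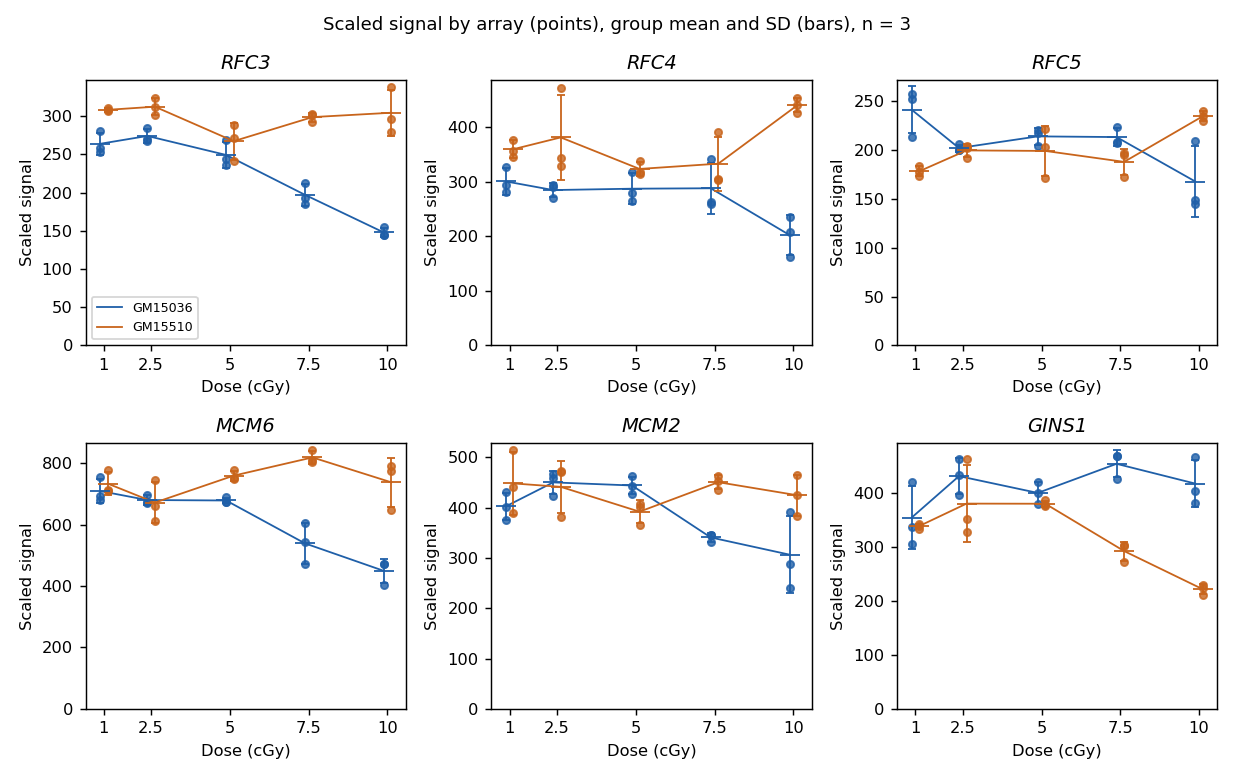
Scaled signal (vertical axis, arbitrary units) against dose in cGy (horizontal axis) for RFC3, RFC4, RFC5, MCM6, MCM2 and GINS1 in GM15036 and GM15510; points are arrays and bars the mean ± SD of 3. RFC3 falls to 144 to 155 at 10 cGy in GM15036 and stays at 279.6 to 338 in GM15510, while GINS1 goes to 211 to 229.9 at 10 cGy in GM15510 and 383 to 467 in GM15036.

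Of the MCM helicase, 2 of 6 genes fell at 10 cGy. MCM6 (201930_at) read 693, 755 and 681 on the 1 cGy arrays, then 673, 669.6 and 698 at 2.5 cGy and 674, 689 and 674 at 5 cGy. The 7.5 cGy arrays gave 604, 471 and 542, and the 10 cGy arrays 471, 404 and 473. As with RFC3, its arrays at the lowest 3 doses lay together and those of the highest 2 below them all. The log2 change was -0.66 at 10 cGy (SE 0.095, adjusted p = 1.03e-05), which passed with each array left out and under all 15 alternatives (highest adjusted p 0.0103). At 7.5 cGy it was -0.40 (SE 0.095, adjusted p = 0.0149), lost without 1 cGy array b (0.118) or 7.5 cGy array b (0.169). Brightness as a covariate also lost this call (0.136). MCM2, another subunit of the ring, read 431, 401 and 376 at 1 cGy, 331, 345 and 346 at 7.5 cGy and 241, 391 and 288 at 10 cGy. Its 10 cGy arrays were the most spread, with array b inside the range of 1 cGy, and the log2 change of -0.41 passed (SE 0.118, adjusted p = 0.0217). It did not pass without 1 cGy array a (0.0996) or b (0.0633), or without 10 cGy array a (0.231) or c (0.0745).

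MCM3, MCM4 and MCM7 changed by 0.05, -0.04 and 0.15 at 10 cGy and did not pass. MCM5, on a probe set whose signal was low, gave -0.87 (adjusted p = 0.0807), and its other probe set, 216237_s_at, -0.006. MCM10, which helps to switch the loaded helicase on, read 80.5, 69.5 and 63.9 at 1 cGy and 45.4, 39.4 and 52.4 at 10 cGy, without overlap. Its log2 change was -0.60 (SE 0.148, adjusted p = 0.00663), lost without 1 cGy array a (0.0527) or 10 cGy array b (0.0547).

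Origin recognition genes went both ways. ORC5, a subunit of the complex, read 75.9, 110.0 and 103 at 1 cGy and 51.9, 53.1 and 59.4 at 10 cGy, a log2 change of -0.76 (SE 0.163, adjusted p = 0.00181). All 10 cGy arrays of ORC5 lay below those at 1 cGy, and at 2.5, 5 and 7.5 cGy its arrays ran from 61.1 to 90.8. The gene's other 2 probe sets were both higher at 10 cGy on all arrays, at low signal: 211212_s_at went from 7.80 to 9.38 at 1 cGy to 9.64 to 10.7 at 10 cGy (log2 change 0.18, adjusted p = 0.852), and 211213_at, which was not tested, from 0.622 to 4.33 to 5.23 to 7.53. With the mean of its probe sets the ORC5 change was -0.29 and did not pass (adjusted p = 0.441). ORC6, the smallest and most loosely bound subunit, was the 1 member that rose: 824, 836 and 958 at 1 cGy against 1183, 1335 and 1141 at 10 cGy, a log2 change of 0.48 (SE 0.104, adjusted p = 0.00184). This direction depended on the processing, since median centring turned the ORC6 change to -0.18 and centring after scaling left 0.25, neither of which passed. Median centring used log2 of the unscaled signal plus 4, so the pseudocount weighed more on dim arrays. Centring after scaling used the same centring with 4 added to the scaled signal, so the 2 settings differ in the weight of the pseudocount. The ORC6 probe set is of the kind that can also bind related transcripts (suffix _x_at). ORC1, ORC2, ORC3 and ORC4 gave -0.68, -0.49, -0.26 and 1.19 and did not pass. The ORC1 probe set was dim, and its 10 cGy arrays, from 0.696 to 29.1, overlapped those at 1 cGy (16.9 to 26.5). The other ORC4 probe set, 203351_s_at, went from 117, 133 and 162 at 1 cGy to 51.6, 52.3 and 60.9 at 10 cGy, a log2 change of -1.25 (SE 0.133, adjusted p = 5.44e-08), against the direction of 203352_at, whose signals in GM15036 were 0.961 to 22.5.

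GINS4, a subunit of the helicase cofactor GINS, fell by 1.06 on the log2 scale (SE 0.282, adjusted p = 0.0125), from 43.4, 51.5 and 55.6 to 34.8, 13.4 and 21.4. The call was lost without 1 cGy array c (0.0589) or 10 cGy array b (0.125). CDC45, GINS1, GINS2 and GINS3 changed by 0.14, 0.24, 0.17 and -0.24 and did not pass, though a second GINS3 probe set, 218719_s_at, gave -1.27 (adjusted p = 0.00778). TIPIN, the partner of TIMELESS at the moving fork, read 100.003, 118 and 96.5 at 1 cGy and 64.9, 83.7 and 66.3 at 10 cGy. Its arrays did not overlap, and the log2 change was -0.53 (SE 0.127, adjusted p = 0.00553), lost without 1 cGy array b (0.0598). TIMELESS itself gave -0.65 (adjusted p = 0.241) on a probe set of low signal and 0.17 on another.

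The loading factors, the kinase, the polymerases and the chromatin factors did not pass at 10 cGy. CDT1, on a probe set of low signal, read 10.6, 13.5 and 2.04 at 1 cGy and 14.1, 19.9 and 15.1 at 10 cGy. Its change of 0.81 had an SE of 0.430, and 1 cGy array c was its lowest array in the line. Of the 3 loading factors 2 lay below 0, with a median of -0.15. CDC7 read 119.7, 138 and 117 against 125, 83.1 and 117, and POLE3, a histone-fold subunit of polymerase epsilon, 44.9, 58.6 and 74.3 against 45.2, 48.3 and 50.1. Both pairs of groups overlapped. FEN1, which trims Okazaki fragment flaps, read 902, 923 and 818 against 858, 877 and 901, a change of -0.002 (SE 0.122). Of the polymerase genes, the 3 subunits of polymerase delta gave 0.14 to 0.28 and those of polymerase epsilon -0.43 to 0.41. CHAF1A gave 0.34 and CHAF1B -0.04, while the second CHAF1A probe set, 203975_s_at, rose by 1.08 (adjusted p = 0.024).

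Brightness moved with dose in GM15036, so the 10 cGy changes were also fitted with brightness as a covariate, where RFC3 (-0.82) and MCM6 (-0.62) passed and the other 9 did not. Their changes there were -1.11 for GINS4, -0.79 for RFC2, -0.73 for ORC5, -0.64 for TIPIN, -0.47 for MCM2 and -0.46 for RFC5, further from 0 than without the covariate for GINS4, TIPIN and MCM2. They were smaller for RFC4 (-0.30), MCM10 (-0.37) and ORC6 (0.36). Without the 5 dimmest arrays, among them 10 cGy arrays a and b, RFC3, MCM6, RFC5, MCM2 and TIPIN passed. Both other centrings moved the whole distribution down: median centring gave an all-gene median of -0.25, a member median of -0.73 and 29 members lower and 1 higher, and centring after scaling -0.18, -0.47 and 15 lower and 0 higher. Across all genes the split was 279 higher and 554 lower as reported, whereas median centring gave 173 and 2467 and the later centring 59 and 1244.

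**Figure D3:**
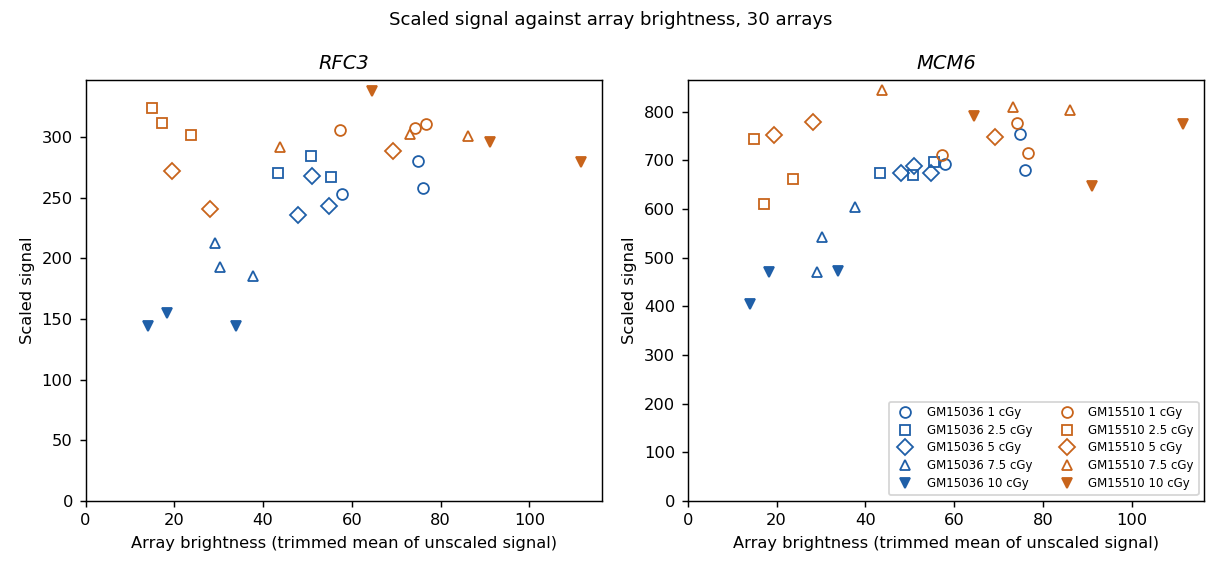
Scaled signal of RFC3 and MCM6 (vertical axes, arbitrary units) against array brightness before scaling (horizontal axis), 1 point an array, coloured by line with a symbol for each dose. The 10 cGy arrays of GM15036 read 144 to 155 for RFC3 and 404 to 473 for MCM6, and the 2.5 cGy arrays of GM15510 301 to 324 and 611 to 744.

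At the middle doses fewer members differed from 1 cGy in GM15036. At 7.5 cGy RFC3 and MCM6 fell, 2 of 44, where 1.97% of all genes were called and 1.33% fell. At 2.5 and 5 cGy limma called 0 members, with 6 and 4 at an unadjusted p under 0.05, and it called 0.312% and 0.0682% of all genes. Unadjusted counts, here and below, stand without the share of all genes at that threshold and show no difference by themselves. The slope over all 5 doses passed for 14 members, 12 downward and 2 upward, where 9.13% of all genes passed and 5.83% sloped down. The member median was -0.025 log2 per cGy, against 0.0025 for all genes.

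Those with the smallest p were RFC3 at -0.094 log2 per cGy (adjusted p = 5.10e-09), MCM6 at -0.073 (7.99e-07) and MCM2 at -0.056 (8.11e-04). RFC2 (-0.10), RFC4 (-0.051), RFC5 (-0.042), MCM10 (-0.060), GINS4 (-0.11), TIPIN (-0.053) and ORC5 (-0.060) also sloped down, as did POLE2 (-0.051, adjusted p = 0.0326), a polymerase epsilon subunit, and PCNA (-0.038, adjusted p = 0.041). ORC6 (0.040) and ORC4 (0.16) sloped up, ORC6 turning to -0.023 under median centring. The upward ORC4 slope came from a probe set near the pseudocount (adjusted p = 0.0376) and passed in 8 of 19 alternatives. The other, brighter ORC4 probe set, which does not stand for the gene in these counts, sloped down at -0.11 (adjusted p = 5.92e-07). The slopes of RFC5 (-0.016) and ORC5 (-0.033) with the mean of their probe sets, and of RFC2 (-0.025) on its brightest, did not pass. Without the 10 cGy groups only RFC3 and MCM6 kept a slope that passed, and the other 12 did not pass. Their slopes were then nearer 0 for RFC4 (-0.0080), RFC5 (-0.016), MCM10 (-0.017) and RFC2 (-0.058), while POLE2 (-0.052), GINS4 (-0.083), ORC5 (-0.043) and MCM2 (-0.038) kept more of their size. PCNA and POLE2 were each lost without any of 6 arrays (adjusted p up to 0.156 and 0.121) and ORC4 without any of 8 (up to 0.126). RFC5 was lost without 10 cGy array a (0.0755) or c (0.0598), RFC4 without 10 cGy array b (0.0654), GINS4 and ORC6 without the same array (0.0517 and 0.0552) and ORC5 without 1 cGy array b (0.0602). The F test for any difference among doses passed for 11 members, where 11.2% of all genes passed.

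In GM15510 few members differed from 1 cGy at any single dose, and GINS1 was the clearest. The F test for any difference among doses, given below, passed for more of them. GINS1, a GINS subunit (206102_at), read 340.4, 343 and 335 on the 1 cGy arrays, then 353, 463 and 328 at 2.5 cGy and 387, 378 and 377 at 5 cGy. Its 7.5 cGy arrays gave 303, 303 and 273, and those of 10 cGy 225, 229.9 and 211. Its 10 cGy arrays lay below all the others of the line, a log2 change of -0.60 from 1 cGy (SE 0.110, adjusted p = 4.16e-04), and the call passed with each array left out. The slope was -0.072 log2 per cGy (adjusted p = 3.57e-05) and did not pass without the 10 cGy groups (-0.033, adjusted p = 0.434). Under median centring the GINS1 change at 10 cGy was -0.56 and did not pass (adjusted p = 0.129).

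RFC5 rose at 10 cGy in GM15510, from 173, 177 and 184 to 229, 239.7 and 234, a log2 change of 0.39 (adjusted p = 0.0417) that was lost without any 1 of these 6 arrays (0.0833 to 0.145) and with the mean of the gene's probe sets (0.18, adjusted p = 0.788). ORC6 rose at 5 cGy, from 658, 638 and 526 to 917, 844 and 769, a change of 0.47 (adjusted p = 0.0057), lost without 1 cGy array 3 (0.0985) or 5 cGy array 1 (0.0561). Median centring left 0.058 of this ORC6 change (adjusted p = 0.871) and centring after scaling 0.32 (0.117). At 2.5 cGy ORC6 rose by 0.33 (adjusted p = 0.0475) and turned to -0.44 under median centring, where it passed as lower (0.0365). GINS2, a GINS subunit, rose at 2.5 cGy from 178, 182 and 155 to 192, 215 and 260.3, by 0.36 (adjusted p = 0.04999), and turned to -0.37 under median centring, where it also passed as lower (0.0446). Both calls at 2.5 cGy stood at the threshold: ORC6 was lost without any 1 of 20 arrays (up to 0.301) and GINS2 of 23 (up to 0.278).

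The counts for GM15510 were thus 2 higher at 2.5 cGy and 1 higher at 5 cGy. At 7.5 cGy limma called 0, with 5 at an unadjusted p under 0.05, and the 10 cGy arrays gave 1 higher and 1 lower. Over all genes 6.26%, 2.46%, 1.01% and 3.94% were called at these doses, and 3.31% had a slope that passed, as GINS1 did. The F test passed for 9 members, GINS1, ORC6, MCM7, CDC7, MCM3, POLE3, GINS2, PCNA and POLA1, where 14.8% of all genes passed. Several of these peaked or dipped at a middle dose. MCM7 read 862, 772 and 786 at 7.5 cGy and 572, 662 and 676 at 1 cGy. POLE3 read 46.5, 46.0 and 48.9 at 7.5 cGy, 78.3, 76.7 and 77.2 at 1 cGy and 89.1, 82.7 and 76.7 at 10 cGy. CDC7, the catalytic kinase, read 197, 161 and 179 at 7.5 cGy and 108, 107 and 109.7 at 10 cGy, against 146, 150.4 and 153 at 1 cGy. None of the single comparisons of MCM7, POLE3 and CDC7 with 1 cGy passed (adjusted p = 0.151 and 0.0544 at 7.5 cGy and 0.137 at 10 cGy, in that order). CDT1 and FEN1 had the smallest F-test p of their classes but did not pass; CDT1 read 12.2, 12.3 and 13.1 at 1 cGy and 13.6, 14.0 and 15.1 at 10 cGy, and FEN1 752, 767 and 795 against 888, 859 and 924.

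The same dose step thus went with different changes in the 2 lines, and the difference itself was tested. At 10 cGy the change from 1 cGy differed between lines for 9 of 44 members, 7 of them higher in GM15510 and 2 lower, where 5.49% of all genes differed. RFC3 read 308, 306 and 311 at 1 cGy and 279.6, 296 and 338 at 10 cGy in GM15510, so that its groups overlapped there. The difference of the changes, GM15510 minus GM15036, was 0.80 log2 (adjusted p = 1.36e-04) and passed with each array left out and under all 14 alternatives. The other clamp loader differences were 0.92 for RFC5 (adjusted p = 2.41e-04), 0.86 for RFC4 (0.00192) and 1.23 for RFC2 (0.0234). In GM15510 RFC4 read 346, 377 and 357 at 1 cGy and 441, 427 and 453 at 10 cGy, the opposite order to GM15036, and RFC2 65.8, 36.6 and 45.7 against 81.0, 45.1 and 61.0, which overlap. RFC2 lost this call when any 1 of 5 arrays was left out (up to 0.103) and on its brightest probe set (0.36, adjusted p = 0.621), and RFC5 with the mean of its probe sets (0.44, adjusted p = 0.322).

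**Figure D4:**
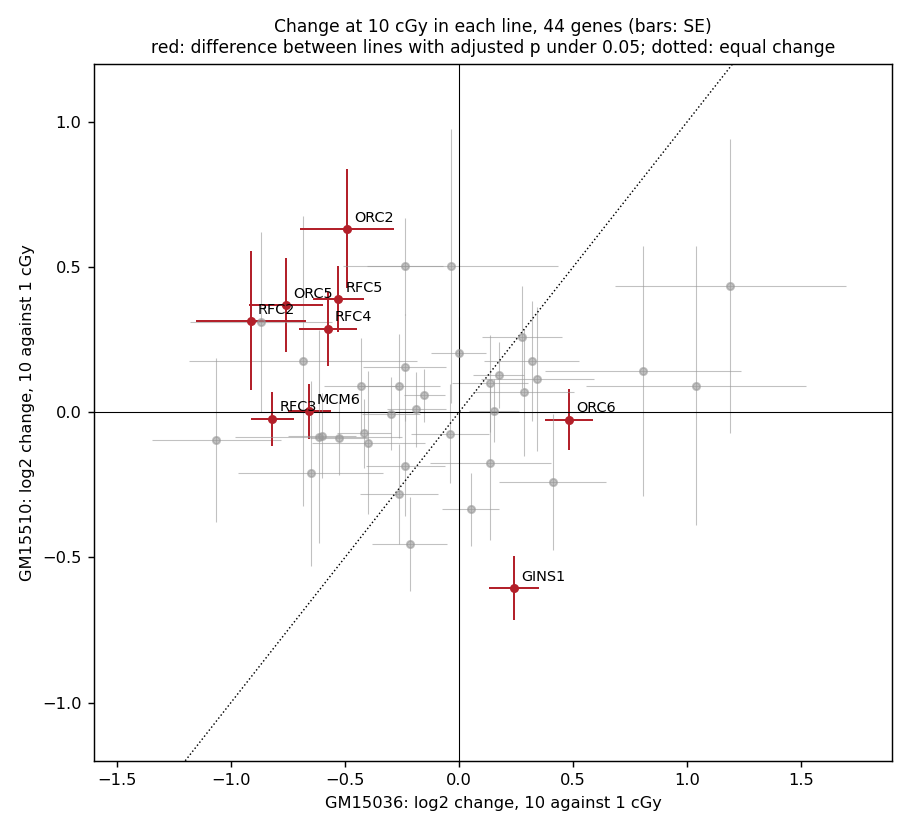
Log2 change from 1 to 10 cGy of the 44 genes in GM15036 (horizontal axis) and GM15510 (vertical axis); red points are the 9 genes whose difference between lines had an adjusted p under 0.05. RFC2, RFC3, RFC4, RFC5, MCM6, ORC2 and ORC5 lie above the diagonal and GINS1 and ORC6 below it.

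MCM6 differed by 0.66 at 10 cGy (adjusted p = 0.00147) and 0.56 at 7.5 cGy (0.0156), and GM15510 read 777, 710.4 and 714 on 1 cGy arrays, 844, 803 and 810.0 on 7.5 cGy arrays and 775, 647 and 792 on 10 cGy arrays. The difference at 7.5 cGy did not pass under median centring or centring after scaling (adjusted p up to 0.13), or without GM15036 array b at 1 or 7.5 cGy or GM15510 1 cGy array 2 (up to 0.0764). ORC5 differed by 1.13 (adjusted p = 0.00159), but by 0.51 with the mean of its probe sets (0.39). ORC2 differed by 1.12 (adjusted p = 0.0142), lost without GM15510 1 cGy array 2 (0.0525). ORC2 read 71.7, 73.5 and 90.8 at 1 cGy and 46.5, 74.7 and 46.3 at 10 cGy in GM15036, and 51.0, 45.6 and 61.3 against 92.0, 85.1 and 73.6 in GM15510. GINS1 differed the other way, by -0.85 at 10 cGy (adjusted p = 4.92e-04) and -0.58 at 7.5 cGy (0.0376), as GM15036 read 421, 338 and 307 at 1 cGy and 467, 383 and 405 at 10 cGy. Median centring left -0.17 at 10 cGy and -0.34 at 7.5 cGy for GINS1, neither of which passed (adjusted p = 0.734 and 0.655). ORC6 differed by -0.51 (adjusted p = 0.0323), turning to 0.20 under median centring. At 7.5 cGy MCM6 and GINS1 were the 2 members that differed, where 2.15% of all genes did. At 2.5 and 5 cGy limma found 0 members, where 1.85% and 0.56% of all probe sets differed. An unadjusted p under 0.05 was reached by 9 and 7 members.

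Slopes on dose differed between lines for 13 members, 11 higher in GM15510 and 2 lower, where 7.48% of all genes differed, and the interaction of line and dose passed for 18, where 14.4% did. With brightness as a covariate 1 slope difference, that of RFC3, passed, and without the 10 cGy groups 1, that of MCM6. The second probe sets of ORC4 (203351_s_at, difference 1.67 at 10 cGy, adjusted p = 4.25e-07) and RFC1 (208021_s_at, 1.31, adjusted p = 0.00479) also passed. ORC4 203351_s_at read 88.5, 108 and 110.5 at 1 cGy and 134, 142 and 136 at 10 cGy in GM15510.

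Averaged over doses, the lines differed in 24 of 44 members, 15 higher and 9 lower in GM15510, where 37.4% of all genes differed, 15.2% higher and 22.3% lower. The member median was 0.03 and that of all genes -0.08; median centring and centring after scaling each moved the latter by more than 0.1, to 0.02 and 0.03. PRIM1, the catalytic primase subunit, had the largest difference of the members that passed: its 15 arrays ran from 50.05 to 79.4 in GM15036 and from 97.0 to 140.1 in GM15510, without overlap. The log2 difference was 0.88 (SE 0.058, adjusted p = 2.28e-15). MCM10 (0.73), ORC5 (0.44), RFC4 (0.43), RFC3 (0.42), RFC2 (0.42), CDC6 (0.40), MCM7 (0.38), TIPIN (0.33), POLE2 (0.32), MCM6 (0.30), CDC7 (0.30), GMNN (0.22), PCNA (0.20) and MCM2 (0.16) were also higher in GM15510. Lower there were CDC45 (-0.63), ORC6 (-0.56), POLA2 (-0.50), POLE (-0.49), POLD3 (-0.43), GINS1 (-0.37), GINS2 (-0.33), POLD2 (-0.28) and POLA1 (-0.22). All 24 passed with each array left out. POLD2 and POLA1 did not pass under median centring (adjusted p = 0.306 and 0.589), nor PCNA and MCM2 under quantile normalization (0.0535 and 0.17). MCM7 was 0.065 higher with the mean of its probe sets and did not pass (adjusted p = 0.625). Over all genes the split of 1555 higher and 2288 lower became 2023 and 1265 under median centring.

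**Figure D5:**
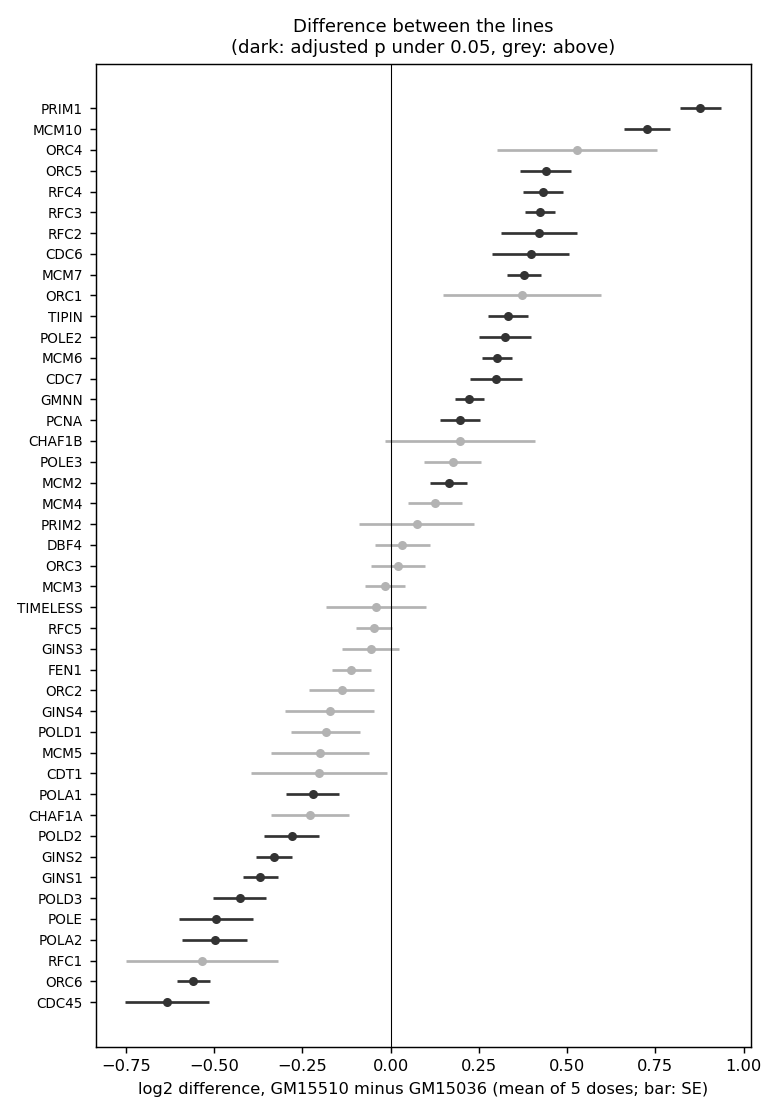
Log2 difference GM15510 minus GM15036 averaged over the 5 doses (horizontal axis, with SE bars) for the 44 genes, marked where the adjusted p was under 0.05. PRIM1 stands furthest to the right at 0.88 and CDC45 furthest to the left of the genes that passed, at -0.63.

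Of 52 other replication genes on a list, 39 were tested. In GM15036 at 10 cGy 6 of them fell and 0 rose, where 5.4% of all genes fell, with a list median of -0.23: HAT1, a histone acetyltransferase, by 0.68 (adjusted p = 2.20e-04), TOP2A, a topoisomerase that untangles finished DNA, by 0.58 (4.78e-04), TOP1, which relieves twist ahead of the fork, by 0.67 (9.40e-04), DNA2, a nuclease, by 0.74 (0.00143), and RBBP4 and DONSON. At 7.5 cGy HAT1 fell (by 0.48, adjusted p = 0.026; 1.33% of all genes fell), and at 2.5 and 5 cGy limma called 0, with 4 and 2 at an unadjusted p under 0.05. In GM15510 4 fell and 1 rose at 2.5 cGy, TOP1 (-0.91), ASF1A (-0.85), RBBP4 (-0.64) and SUPT16H (-0.52) against RBBP7 (0.52), 5 of 39 called where 6.26% of all genes were. At 5 cGy TOP1 (-0.66) and TOPBP1 (-0.38) fell in GM15510 and RBBP7 (0.34) rose, where 2.46% of all genes were called. At 10 cGy CCNE1 (-0.83) and DONSON (-0.48) fell there and DDB1 (0.53) rose, 3 of 39 where 3.94% of all genes were called.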

How the data were processed

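RNA of 30 arrays, 3 for each of 5 doses of both lines, was measured on an Affymetrix array after T7 amplification and biotin labelling, per the labels' protocols and the design text. The deposited values are signal intensities on a linear scale, computed by the authors with MAS5 per the submitters' processing notes. The version, the scaling target and the background settings are not given in the sources used here. No array file before MAS5 was used. The number of arrays limits the precision, and arrays have no read depth. No 2 arrays held identical values.

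Brightness, the mean of each array's values between the percentiles 2 and 98, differed 7.91 times between arrays, so each array was scaled to 50.9, and a pseudocount of 4, chosen as the power of 2 closest to the 25th percentile of scaled values (4.05), was added before log2. A probe set was tested where it exceeded the 40th percentile of its array in at least 3 arrays (18450). The annotation named a single gene for 19071 probe sets, several for 1043 and none for 2169, and symbols were updated by gene ID for 19059 with a RefSeq table of GRCh38.p14. A gene was represented by the probe set with the highest mean log2 value, where an _x_at or _s_at set was used if the gene had no other. All tests were two-sided, in limma 3.58.1 (R 4.3.3), with lmFit on 10 groups, eBayes with a trend, 20 residual and 16.8 prior degrees of freedom, and Benjamini-Hochberg adjustment over all tested probe sets, threshold 0.05. Simulated data with known changes were used to test the code.

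The members and lists were chosen with earlier results of these data known. Values of every array are given for members that passed in a dose comparison or slope, at most the 8 with the smallest p in a line, and for the member of each complex with the smallest F-test p. MCM7, POLA1, ORC2, PRIM1, GINS4, PCNA and the second probe sets were added after their values were seen. Of the other list up to 4 genes past the threshold with the smallest p are named, and others to complete a count of 6 or fewer.

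Alternatives were quantile normalization, median centring, centring after scaling, pseudocounts of 1 and 16, no filter and a 60th percentile filter, brightness as a covariate, a replicate block, the mean of a gene's probe sets, each line alone, array weights, leaving out the 5 dimmest arrays, and each array in turn. Added after seeing the data were the brightest probe set of each gene, leaving out GM15510 5 cGy array 3, and slopes without 1 dose.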

Additional observations from a re-analysis of the deposited data

Results flagged for a closer look

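The change with dose differed between the lines, by limma's test of the difference itself, in the following members (GM15510 minus GM15036). The differences of the dose slopes, in log2 per cGy, were 0.13 for RFC2, 0.060 for PCNA, 0.087 for MCM6, 0.052 for MCM2, 0.071 for RFC5, 0.069 for RFC4, 0.090 for RFC3, 0.072 for POLA1, 0.099 for ORC2, 0.097 for ORC5 and 0.072 for MCM10, all higher in GM15510. They were -0.094 for GINS1 and -0.052 for ORC6. POLA1 stood nearest the threshold (adjusted p = 0.0458) and kept its call with 13 of 30 arrays left out (up to 0.137). PCNA and MCM10 kept theirs with 25 of 30 (up to 0.0992 and 0.0673), ORC2 with 25 (up to 0.0626) and MCM2 with 17 (up to 0.158).

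At 7.5 cGy the change from 1 cGy differed by 0.56 log2 for MCM6 and by -0.58 for GINS1, the latter kept with 21 of 30 arrays left out (adjusted p up to 0.148). At 10 cGy it differed by 1.23 for RFC2, 0.66 for MCM6, 0.92 for RFC5, 0.86 for RFC4, 0.80 for RFC3, 1.12 for ORC2 and 1.13 for ORC5, and by -0.85 for GINS1 and -0.51 for ORC6. On other probe sets 3 of these were smaller and did not pass: RFC2 gave 0.36 on its brightest probe set, and RFC5 and ORC5 gave 0.44 and 0.51 with the mean of theirs. Before scaling, brightness at 10 cGy was 22.1 ± 10.4 in GM15036 and 89.1 ± 23.6 in GM15510 (SD, n = 3). With brightness as a covariate the differences of RFC3 (0.80), RFC5 (0.84) and GINS1 (-0.78) passed. Those of ORC5 (1.09), RFC2 (1.08), ORC2 (0.85), MCM6 (0.61), RFC4 (0.54) and ORC6 (-0.36) did not.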

How the results depend on the processing

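Counts are of the 44 members past limma's threshold, and where a value moved the cause was not tested. In GM15036 the count was 11 at 10 cGy, 30 under median centring, 2 with brightness as a covariate, 5 without the 5 dimmest arrays and 9 to 11 with 1 array left out. At 7.5 cGy it was 2, with 0 under the brightness covariate, 1 with the mean of a gene's probe sets and 0 to 3 with 1 array left out, and at 2.5 cGy 0, with 1 for the brightest probe set. The slope count of 14 became 29 under median centring, 2 with the brightness covariate, 7 without the dimmest arrays, 2 without the 10 cGy groups and 10 to 15 with 1 array left out. The F-test count of 11 became 23, 4 and 5 in the first 3 of these settings and 7 to 12 with 1 array left out (7 without 10 cGy array b). In GM15510 at 2.5 cGy the count of 2 became 26 under median centring, 7 under centring after scaling, 1 with pseudocount 16, 4 with the 60th percentile filter, 1 with the mean of probe sets or the line alone, 0 with no filter, array weights, the brightness covariate or without the dimmest arrays, and 0 to 3 with 1 array left out. At 5 cGy the count of 1 became 9 under median centring, 3 under centring after scaling, the mean of probe sets, array weights or without array 3, 2 under quantile normalization, pseudocount 1, the 60th percentile filter or without the dimmest arrays, 0 with the brightness covariate and 0 to 3 with 1 array left out. At 7.5 cGy the count of 0 became 1 with pseudocount 16, the 60th percentile filter, the brightness covariate, the mean of probe sets, array weights, without the dimmest arrays or without 5 cGy array 3, and 0 to 1 with 1 array left out. At 10 cGy the count of 2 became 0 under median centring, 1 under centring after scaling or the mean of probe sets, 5 with array weights, 4 without the dimmest arrays and 1 to 2 with 1 array left out. The slope count of 1 became 8, 2, 3 and 2 under median centring, centring after scaling, array weights and without the dimmest arrays, 4, 3 and 0 without the 1, 7.5 and 10 cGy groups, and 1 to 2 with 1 array left out. The F-test count of 9 became 26 under median centring and 6 to 12 with 1 array left out. Between lines, the interaction count of 18 became 28 under median centring, 6 with the brightness covariate and 13 to 18 with 1 array left out. The slope difference count of 13 became 30, 1, 8 and 1 under median centring, the brightness covariate, without the dimmest arrays and without the 10 cGy groups, and 8 to 14 with 1 array left out (8 without GM15510 10 cGy array 1). The count of line differences, 24, stayed within 1.5 times in every setting run, 24 to 26 with 1 array left out. Leaving out the dimmest arrays left 1 array in 2 groups, assumed to vary like the other groups.

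Signs that turned were those of ORC6 under median centring (-0.18 at 10 cGy and -0.023 per cGy in GM15036, -0.44 at 2.5 cGy in GM15510, and between lines 0.052 per cGy and 0.20 at 10 cGy), and of GINS2 at 2.5 cGy under median centring (-0.37) and the brightness covariate (-0.054). The others were the ORC4 slope on its brightest probe set (-0.11), the slope difference of GINS1 under median centring (0.0075) and, without the 10 cGy groups, those of RFC4 (-0.019) and ORC6 (0.0015). The replicate labels share only a letter or number: in neither line did any of 30 same-labelled pairs of arrays correlate above 0.1 in their deviations from the group means (-0.035 to 0.041 and -0.038 to 0.070). With the replicate block the GM15510 count at 2.5 cGy was 1, as GINS2 no longer passed (adjusted p = 0.0588), the POLA1 slope difference no longer passed (0.0522), and no other count left its range of 1.5 times. Dim probe sets, such as those that stand for RFC1, ORC1, ORC4, CDT1, MCM5 and TIMELESS, limit what can be read of these genes.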
